A study of Mus musculus with 24 samples.

Results

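The m6A peaks described here were chosen by where peaks were called in hippocampal RNA of 5xFAD mice given MS1262 or vehicle. Peaks of 12 animals were merged wherever they overlapped by at least 1 base. A merged peak was selected when it was found in at least 1 wild-type animal and either in at least 3 of 4 MS1262 animals and at most 1 of 4 vehicle animals, or the reverse. Of 13683 merged peaks, 7439 were found in a wild-type animal, and 402 of these met the rule. Among the 7439, 304 (4.09%) were found with MS1262 and rare with vehicle, and 98 (1.32%) were found with vehicle and rare with MS1262. These counts, and which animals carried the peaks, follow from the rule and are given as a description with no test.

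N6-methyladenosine (m6A) is an abundant mark within messenger RNAs. A writer complex built on Mettl3 and Mettl14 adds it, Fto and Alkbh5 can remove it, and reader proteins of the YTH family bind it and influence the decay, export and translation of the transcript. The mark is known to gather around stop codons and in long exons, at sites of the DRACH consensus, in which the methylated A is followed by C and then by any letter but G. In the hippocampus it has been studied for its part in synaptic plasticity and memory.

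Each of the 12 mice gave an input library of poly(A) RNA and an immunoprecipitated (IP) library pulled down with an anti-m6A antibody, and the groups held 4 animals each. Wild-type animals were untreated. Both other groups carried 5xFAD, a genotype with human transgenes that hold familial Alzheimer's disease mutations and are driven in neurons by the Thy1 promoter, and received either vehicle or MS1262, which the series title describes as a brain-penetrant inhibitor of the G9a methylase (Ehmt2). The animals were age-matched per the labels, and the age itself, the dose and the duration of treatment are not given in the sources used here.

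Input libraries held 20.7 to 43.2 M estimated counts (M, megacounts) and IP libraries 3.98 to 48.6 M, with the smallest IP library in vehicle animal 4. The 4 neuronal markers summed to between 9287 and 11567 counts per M (CPM) in every input. Vehicle animal 3 stood apart. Its 5 choroid plexus markers summed to 8074 CPM, of which transthyretin (Ttr) made 7665, against 70.2 to 98.8 CPM in the other vehicle inputs. Its Xist level was 1.41 CPM against 23.5 to 52.2 CPM in the other 11 inputs, and the 4 Y-linked genes summed to no more than 0.134 CPM in any input. Without vehicle animal 3 and with the thresholds left as they were, the rule chose 549 peaks with MS1262 and 18 with vehicle. Leaving out vehicle 1, 2 or 4 moved the counts the same way, to 766, 457 and 524 with MS1262 and 11, 43 and 47 with vehicle. With fewer vehicle animals the vehicle threshold is harder to reach and the other easier, by construction. For whole genes, leaving it out changed the number called by edgeR from 0 to 1 in input level and left it at 0 in IP over input for MS1262 against vehicle, and changed it from 278 to 297 and from 181 to 162 for vehicle against wild-type. The part of this library in the results below was not tested beyond such omissions.

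Where a chosen peak overlapped a transcription start window of the RefSeq tables (GRCm38.p6, 300 bases per window), its bases could be read in the sense of the gene that holds it. This was so for 9 of the 402 peaks, and only in part, between 2.42% and 69.0% of the peak. The letters GGAC, a common core of the m6A consensus, lay in this readable stretch of 3 of the 9. The matches with 13 readable bases on each side are shown, GGAC in capitals, because they let a reader see candidate m6A contexts inside peaks of both directions.
Gabarapl1, chr6:129533272-129533301, plus strand, peak found with MS1262: caggtccttctctGGACgtttagccacgta
Gabarapl1, chr6:129533454-129533483, plus strand, peak found with MS1262: tccagtataaggaGGACcaccccttcgagt
Gsk3a, chr7:25228616-25228645, minus strand, peak found with MS1262: gggagaaaaggaaGGACggggtttgggggt
Gsk3a, chr7:25228595-25228624, minus strand, peak found with MS1262: tttgggggtgtgaGGACcttctaccccctt
Tmem98, chr11:80821274-80821303, plus strand, peak found with vehicle: taaccgggggcctGGACtggattgaccaat

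A further match in the Gabarapl1 peak lay too close to the edge of the readable stretch and is not shown. In the sequences shown, the letter after GGAC was c in 1 Gabarapl1 and 1 Gsk3a sequence and t in the Tmem98 sequence, all allowed by the consensus, and g in the other 2. Such matches are common. GGAC was present in 65.6% of all 32851 start windows on the sense strand and in 87.7% on either strand, and the longer GGACT, which contains it, in 26.1% and 45.5%. Gabarapl1 codes for an ATG8-family protein of the autophagosome membrane, and its peak lay at the start of the gene. Gsk3a is a kinase known to phosphorylate tau, and Tmem98 is a membrane protein; both of their peaks lay near the gene end, at 95.9% of the span.

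The chosen peaks were unevenly spread over the animals. In the MS1262 direction, 9 peaks were found in 4 MS1262 and 0 vehicle animals, 47 in 3 and 0, 70 in 4 and 1, and 178 in 3 and 1. Of the 248 that 1 vehicle animal shared, that animal was vehicle 1 in 143 and vehicle 4 in 68, against 21 for vehicle 3 and 16 for vehicle 2. Of the 225 that 1 MS1262 animal lacked, it was MS1262 1 in 118, and each of the other 3 lacked 30 to 45. In the vehicle direction, 1 peak was found in 4 vehicle and 0 MS1262 animals, 33 in 3 and 0, 6 in 4 and 1, and 58 in 3 and 1. Vehicle animal 1 carried 95 of these 98 and vehicle animal 3 carried 86, while vehicle animals 2 and 4 carried 62 and 58.

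**Figure D1:**
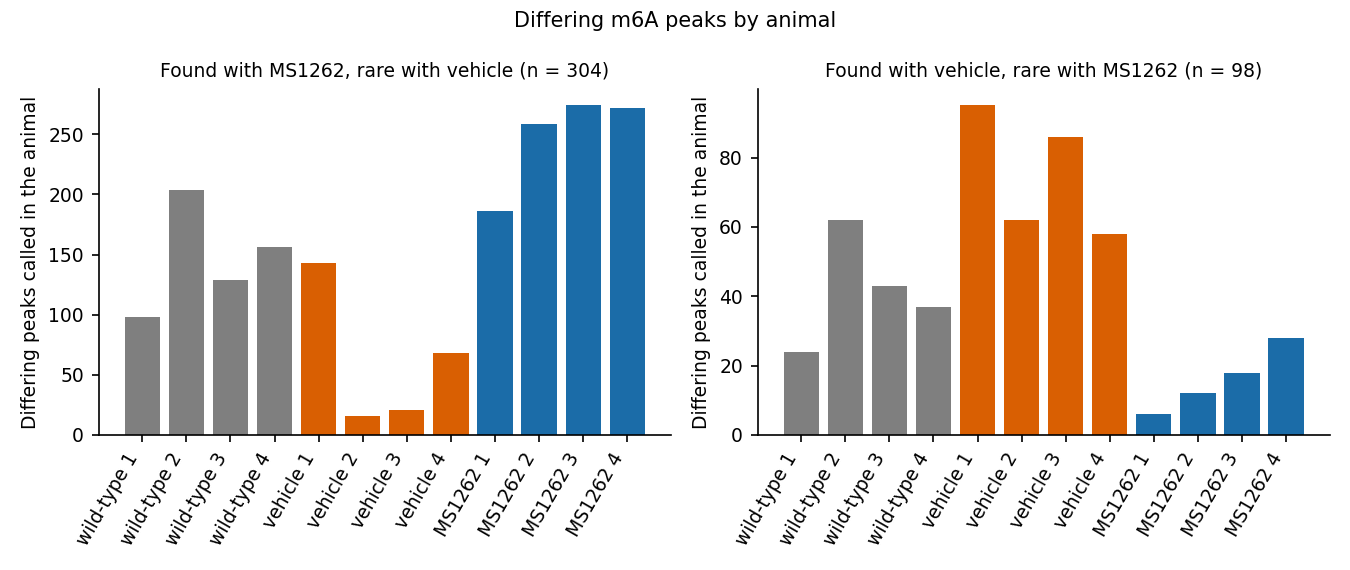
Number of differing peaks called in each animal (y axis) for the 304 peaks found with MS1262 and rare with vehicle (left) and the 98 found with vehicle and rare with MS1262 (right); each bar is 1 animal, grey wild-type, orange vehicle, blue MS1262. Between the MS1262 animals the left-hand count ran from 186 to 274, and vehicle animal 1 held 143 of the same peaks.

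Sequencing depth and peak number differed between the animals in the same libraries. IP tags kept by the peak caller came to 18.4, 19.6, 19.7 and 27.7 M in MS1262 animals 1 to 4, and to 27.8, 14.7, 16.7 and 5.48 M in vehicle animals 1 to 4. Merged peaks numbered 3951, 4868, 5177 and 5676 with MS1262 and 5953, 3382, 3948 and 6155 with vehicle. The groups overlapped in both measures. Vehicle animal 4 had the shallowest IP and the most peaks, with the highest median fold enrichment over background (2.49, against 1.83 to 2.20 in the other 11 animals), and vehicle animals 2 and 3 had the fewest peaks of the 8 5xFAD animals. How far depth set which peaks were chosen was not tested.

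The same rule was applied to all 35 ways of dividing the 8 5xFAD animals into 2 groups of 4, with wild-type animals kept as they were. MS1262 against vehicle gave 402 peaks, the 18th highest of the 35. The other 34 gave 299 to 762 peaks with a median of 410; 17 gave more and 17 gave fewer. The larger of its directions, 304 peaks, was matched or exceeded in 13 of the other 34. The highest count, 762 with 708 in 1 direction, arose when vehicle 1 joined MS1262 2, 3 and 4, which were the 4 deepest of the 8 IP libraries. The number of chosen peaks therefore did not set the labelled groups apart from other divisions of the same animals.

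**Figure D2:**
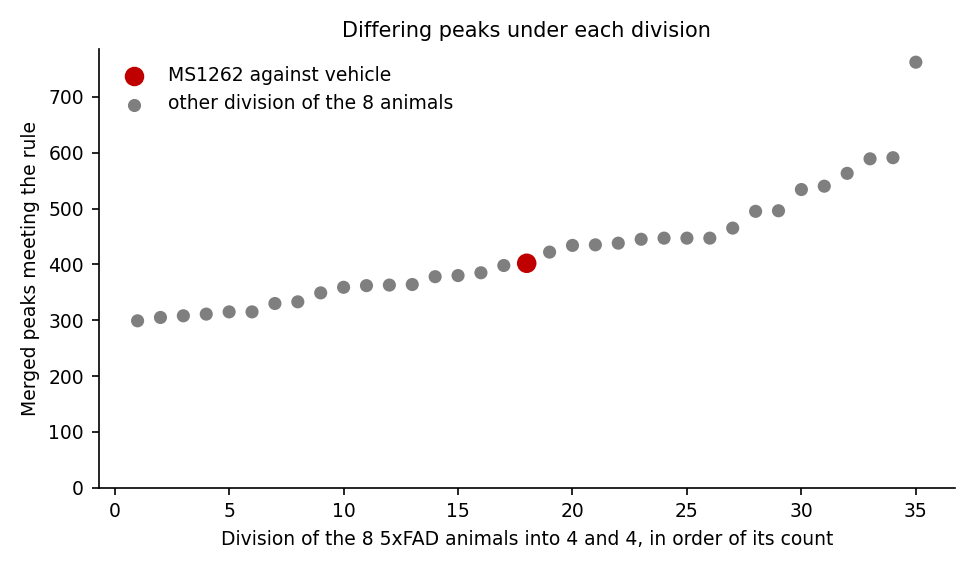
Merged peaks meeting the rule (y axis) under each of the 35 divisions of the 8 5xFAD animals into 4 and 4 (x axis, in order of count); the red point is MS1262 against vehicle and grey points are the other 34. The red point, at 402, sits in the middle of a range from 299 to 762.

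The chosen peaks had lower fold enrichment and were narrower than the peaks found in all 8 5xFAD animals. This contrast is partly built in by the selection. A merged peak spans the calls of every animal that carries it, and stronger peaks are more readily called in every animal. The fold enrichment that the authors' peak caller gave each peak, averaged over the animals with the peak, had a median of 1.97 in the MS1262 direction and 2.10 in the vehicle direction. It was 2.56 for the 1247 peaks found in all 8 5xFAD animals and a wild-type animal, and 2.02 for all 7439. The median −log10 q value was 6.47 and 6.09 in the 2 directions against 19.2 for the peaks in all 8 and 7.98 for all 7439, and the median width 531 and 410 bases against 1019 and 470. By width the MS1262 direction thus lay above peaks in general and the vehicle direction below. In fold, peaks just outside the thresholds were near those just inside. The 178 found in 3 MS1262 and 1 vehicle animal had a median fold of 1.95. The 326 found in 3 and 2 had 2.06 and the 345 found in 2 and 1 had 1.92. On the vehicle side, the 58 found in 3 vehicle and 1 MS1262 animal had 2.03, the 157 found in 3 and 2 had 2.08 and the 216 found in 2 and 1 had 1.99. The peaks in 3 and 2 had higher median −log10 q than those in 3 and 1: 7.77 against 6.46 with MS1262 and 7.36 against 5.88 with vehicle. They were also wider, at 592 against 517 and 488 against 412 bases. The peaks in 2 and 1 had a −log10 q of 6.46 and 6.21 and widths of 478 and 472 bases.

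Wild-type animals, beyond the 1 the rule demands, carried the peaks only in part. Of the MS1262 direction, 132 peaks were found in 1 wild-type animal, 82 in 2, 69 in 3 and 21 (6.91%) in all 4. Of the vehicle direction, the counts were 57, 21, 13 and 7 (7.14%). For comparison, 18.5% of all 7439 peaks and 64.6% of those in all 8 5xFAD animals were found in all 4 wild-type animals. In just 1 wild-type animal lay 43.4% of the MS1262 direction and 58.2% of the vehicle direction, against 45.9% of all 7439. In 2 lay 27.0% and 21.4%, against 19.4%. In 3 lay 22.7% and 13.3%, against 16.2%. Wild-type animal 2 carried the most of both directions, with 204 of 304 (67.1%) and 62 of 98 (63.3%). It also held the most of the 7439 peaks, 4508 against 3140 to 4014 in the other wild-type animals. Its IP was the deepest of the wild-type animals (30.1 M tags kept against 9.58 to 14.4 M). The part of depth in these counts was not tested.

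Most of the chosen peaks lay in protein-coding genes (388 of 402), 96.1% in the MS1262 direction and 98.0% in the vehicle direction. The share was 96.2% over all 7439 peaks and 98.8% in the peaks of all 8 5xFAD animals. Like peaks in general, they lay toward the end of the gene. Among peaks in genes of known strand, 41.1% of 241 in the MS1262 direction and 35.9% of 78 in the vehicle direction fell in the last 10% of the gene span, against 39.0% of the peaks in all 8 5xFAD animals and 40.6% of all. Within 1 kb of the gene end lay 23.2% and 11.5%, against 19.2% and 20.1%. In the first 10% lay 4.15% (10 peaks) and 10.3% (8 peaks), against 7.35% and 6.05%. The counts in the vehicle direction are small, and these shares carry no test. Positions are along the whole gene span, introns included, since exons were not resolved here.

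**Figure D3:**
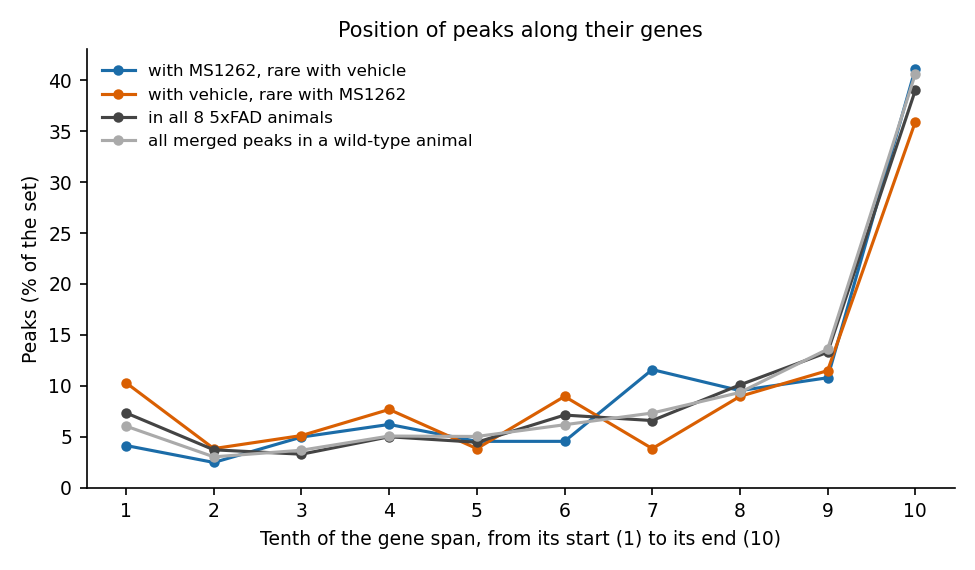
Share of peaks (y axis, percent of the set) in each 10% step of the gene span from start to end (x axis) for the 2 directions of differing peaks, the peaks in all 8 5xFAD animals and all merged peaks found in a wild-type animal. All 4 lines stay under 14% until the last step, where they reach 35.9 to 41.1%.

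The 9 peaks found in every MS1262 animal and in no vehicle animal lay in Calu, Add1, Trap1, Klc2, Armc1, Stmn4, Rasl10a, Usp54 and Tmem59. Calu, a calcium-binding protein of the endoplasmic reticulum, had its peak at chr6:29372383-29372810 (GRCm38), with fold enrichments of 2.12, 2.23, 2.24 and 1.87 in MS1262 animals 1 to 4 and 1.60, 2.90 and 2.46 in wild-type animals 2 to 4. It was found in more wild-type animals than the other 8. Trap1, the mitochondrial member of the Hsp90 chaperones, had folds of 2.36, 2.41, 2.80 and 2.24 with MS1262 and 3.01 in wild-type 3 (chr16:4065112-4065492). Add1, a subunit of adducin that joins spectrin to actin, had 1.95, 2.05, 2.26 and 2.07, and 1.58 and 1.52 in wild-type animals 2 and 4.

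Stmn4, a neuronal stathmin that binds tubulin, held 2 chosen peaks in neighbouring positions. The stricter of them (chr14:66356598-66357060) had folds of 1.73, 2.07, 2.00 and 1.95 with MS1262 and 1.89 in wild-type 4. Klc2, a cargo-binding light chain of kinesin, had 2.14, 1.82, 1.56 and 2.08 with MS1262 and 2.00 in wild-type 2. At Tmem59, a Golgi protein known to affect the trafficking of the amyloid precursor protein, the peak was barely above background: 1.16, 1.29, 1.13 and 1.15 with MS1262 and 1.34 in wild-type 4. The remaining 3 of the 9 had mean folds of 2.04 (Armc1), 1.84 (Rasl10a, at a point also spanned by Gas2l1) and 1.76 (Usp54). All 9 were therefore modest enrichments of 1.13 to 2.80 in the MS1262 animals.

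The peaks next in order lay in Fbxl5, Tceal5 and Ncoa4. Fbxl5, the iron-sensing part of a ubiquitin ligase, had folds of 2.55, 3.05 and 3.20 in MS1262 animals 2 to 4, none with vehicle, and 3.86 in wild-type 4. Ncoa4, the receptor that carries ferritin to autophagosomes, had 2.47, 3.07, 2.81 and 2.79 with MS1262, 2.61 in vehicle 1, and 3.95 and 2.77 in wild-type animals 3 and 4. Tceal5 had 2.98, 3.21 and 3.12 in MS1262 animals 1 to 3, none with vehicle, and 3.05 and 2.25 in wild-type animals 2 and 4.

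The 2 peaks of highest mean fold in the MS1262 direction, looked up after the values were seen, lay in Ivd and Isca1. Ivd, an enzyme of leucine breakdown, had folds of 3.76, 3.15 and 3.95 in MS1262 animals 2 to 4, 4.02 in vehicle 1, and 4.07 and 4.96 in wild-type animals 3 and 4. Isca1, an iron-sulfur cluster assembly protein, had 2.54, 4.77 and 4.22 in MS1262 animals 1, 2 and 4 and 3.81 in vehicle 1. In both genes the vehicle animal with the peak was vehicle 1, the deepest IP of its group. The highest of the vehicle direction, in Plekhb2, had 3.92, 3.96 and 6.77 in vehicle animals 1, 3 and 4 and 4.54 in MS1262 3.

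Ncstn, which codes for nicastrin, the substrate-binding subunit of the gamma-secretase complex that cuts the amyloid precursor protein, held 2 of the 304 peaks. At chr1:172067253-172068138 the folds were 2.89, 2.39 and 1.99 in MS1262 animals 2 to 4, 2.46 in vehicle 4, and 2.02 and 2.39 in wild-type animals 1 and 2. The second (chr1:172071293-172071675) had 1.96, 2.80 and 2.16 in the same MS1262 animals, 2.55 in vehicle 3 and 3.18 in wild-type 4. Both were missing from MS1262 1. Over all 3568 genes with a merged peak, 7.85% held a chosen peak of the MS1262 direction and 2.66% one of the vehicle direction.

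Over the whole gene, IP levels of Ncstn were 97.2, 98.9, 92.0 and 96.0 CPM with MS1262 and 102, 99.8, 110 and 138 CPM with vehicle, and input levels 68.8, 56.6, 54.5 and 54.0 CPM against 61.3, 61.6, 77.0 and 70.3 CPM. The IP levels with MS1262 lay below those with vehicle in all animals, while the input levels overlapped. The IP-over-input ratio differed by -0.01 ± 0.14 (log2, SE) between the groups and the input level by -0.21 ± 0.11, and neither passed the test.

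Of 9 autophagy and lysosome genes with a merged peak, 3 (33.3%) held a chosen peak in the MS1262 direction, Gabarapl1, Atg7 and Atg9a. In the vehicle direction 1 did, Lamp2 (11.1%). Over all 3568 genes with a merged peak the shares were 7.85% and 2.66%. With 9 genes these shares rest on few peaks and were not tested. The Gabarapl1 peak (chr6:129533224-129533674), whose GGAC stretches are printed above, had folds of 1.44, 1.60, 1.91 and 2.49 with MS1262, 2.19 in vehicle 1, and 2.06, 2.68 and 2.05 in wild-type animals 2 to 4. Atg7, the enzyme that activates ATG8 proteins, had 2.19, 2.10 and 1.76 in MS1262 animals 1 to 3, 1.89 in vehicle 3, and 2.10 and 2.35 in wild-type animals 2 and 4, at 99.4% of the gene span. Atg9a, a lipid scramblase of autophagosome formation, had 2.03, 2.13 and 2.01 in MS1262 animals 1, 3 and 4, 3.18 in vehicle 4 and 1.55 in wild-type 2.

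Lamp2, a glycoprotein of the lysosomal membrane, went the other way, with weak folds of 1.31, 1.58 and 1.53 in vehicle animals 1 to 3, none with MS1262, and 1.45 in wild-type 4. The m6A writer, eraser and reader lists, the G9a complex, and the astrocyte, oligodendrocyte, immediate early and translation lists held no chosen peak. Merged peaks were found in 3 of 9 writer, 1 of 2 eraser, 2 of 12 reader, 7 of 13 astrocyte, 7 of 12 oligodendrocyte, 3 of 16 immediate early and 6 of 11 translation genes, and in 1 gene of the G9a complex list. The synapse list held Nrxn3 in the MS1262 direction among 30 genes with a peak (3.33%), and the microglia list 1, Fcrls, among 11 (9.09%), against 7.85% of all genes. In Nrxn3, a presynaptic adhesion protein, the folds were 1.43, 1.62 and 2.00 in MS1262 animals 1, 3 and 4, 2.08 in vehicle 1, and 2.31 and 1.70 in wild-type animals 2 and 4.

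In the vehicle direction, 1 peak was found in all 4 vehicle animals and in no MS1262 animal. It lay in Wasf1 (chr10:40936059-40936835), which codes for WAVE1, a driver of actin branching at dendritic spines, with folds of 1.35, 1.37, 1.25 and 2.86 in vehicle animals 1 to 4 and 1.29, 1.42 and 1.44 in wild-type animals 1 to 3. Vehicle 4 stood above the other 3 vehicle animals and the wild-type animals, which were close together. Input levels of Wasf1 were 154, 186, 143 and 133 CPM with vehicle and 156, 189, 196 and 198 CPM with MS1262.

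The other named peaks of the vehicle direction had higher mean folds than Wasf1 (1.57), apart from Lamp2 (1.47). Mmd2, a membrane protein of the progestin and adipoQ receptor family, had folds of 3.72, 3.98 and 5.85 in vehicle animals 1, 2 and 4, none with MS1262, and 4.32 and 4.22 in wild-type animals 3 and 4 (chr5:142569308-142569727). Eif3h, a subunit of translation initiation factor eIF3, had 4.56, 4.15 and 4.78 in vehicle animals 1 to 3, none with MS1262, and 3.62 in wild-type 3 (chr15:51865187-51865443).

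Xpnpep1, an aminopeptidase, had folds of 3.01, 3.35 and 3.75 in vehicle animals 1, 3 and 4 and was found in 3 wild-type animals at 2.36 to 3.10. Acsl6, a fatty acid activating enzyme of brain, had 2.68, 2.48 and 3.42 in vehicle animals 1, 2 and 4 and was also found in 3 wild-type animals, at 2.71 to 3.37. The adhesion molecule gene Ncam1 had 2.69, 2.34, 2.60 and 4.01 with vehicle and 3.25 in MS1262 3. In Zc3h7a the folds were 2.64, 4.15, 2.43 and 1.93 with vehicle and 2.30 in MS1262 4. The remaining named peaks, in Cap2, Clstn3, Arhgap26 and Ankmy2, were found in 3 vehicle and 0 MS1262 animals with mean folds of 2.35 to 2.47. Vehicle animal 4 carried 9 of the 12 named peaks of this direction, Lamp2 included, and had the highest fold of the vehicle animals in 8 of them. The Plekhb2 peak is not among the 12, and vehicle animal 4 had the highest vehicle fold there too.

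**Figure D4:**
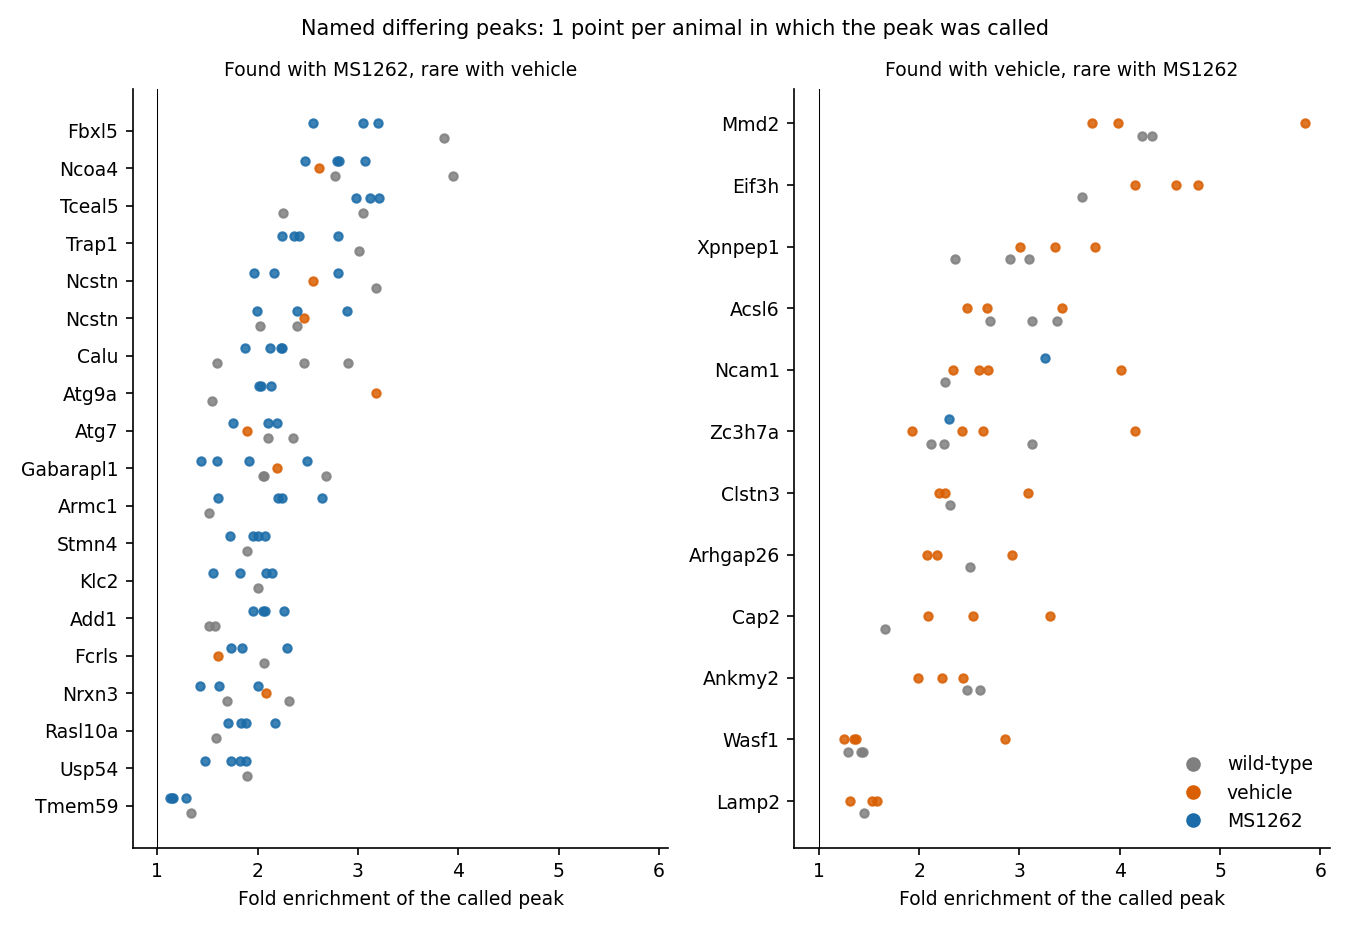
Fold enrichment of the called peak (x axis, as the authors' caller gave it) for the named differing peaks (y axis, by gene; Ncstn has 2); 1 point per animal with the peak, grey wild-type, orange vehicle, blue MS1262, and the line at 1 marks no enrichment. In the left panel the vehicle point of Atg9a (3.18) lies above its MS1262 points; in the right panel Mmd2 and Eif3h reach above 4.

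Of the peaks, 298 of 304 and all 98 lay within genes, 364 in all, and 29 genes held more than 1. In 18 of the 29 the peaks went the same way, 17 with MS1262 (among them Ncstn, Stmn4, Itpr1, Scn2a and Nos1) and 1 with vehicle (Gaa, the lysosomal enzyme acid alpha-glucosidase). Since 304 of all 402 chosen peaks were of the MS1262 direction, most same-way genes would be of it in any case. Agreement within genes was not tested. In the other 11 they went opposite ways within a gene. All 3 genes with 3 peaks were of this mixed kind: Dnajc6, which codes for auxilin of clathrin uncoating, and the vesicle proteins Sv2a and Syt16. Cap2 also held 1 of each direction. Elsewhere in the same gene, a peak common to most animals of both groups was present in 87 of 280 genes of the MS1262 direction (31.1%) and 52 of 95 of the vehicle direction (54.7%), against 38.6% of all genes with a peak.

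The genes that hold the peaks were also measured as whole transcripts. Their median input level was 21.8 transcripts per M in the MS1262 direction and 22.8 in the vehicle direction, against 16.9 over all genes with a merged peak. With edgeR's quasi-likelihood test and Benjamini-Hochberg adjustment over all genes, no gene of 17693 (0%) differed in input level between MS1262 and vehicle at an adjusted p below 0.05, and 1003 (5.67%) had an unadjusted p below 0.05. DESeq2 also called 0. Of the 280 genes of the MS1262 direction 20 were below that unadjusted level, and of the 93 tested in the vehicle direction 5 were. Both shares (7.14% and 5.38%) were near the 5.67% of all genes.

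The host genes with the smallest p in that comparison were Itih3, a heavy chain of inter-alpha-inhibitor, and Apod, a lipid-binding apolipoprotein. Itih3 measured 42.9, 36.0, 28.5 and 30.5 CPM with MS1262 and 42.8, 77.8, 63.6 and 63.9 CPM with vehicle, a log2 difference of -0.85 ± 0.25 (SE; edgeR adjusted p = 0.848). Apod measured 199, 129, 153 and 123 CPM against 203, 158, 327 and 264 CPM, a difference of -0.66 ± 0.20 (edgeR adjusted p = 0.848). In both genes the groups overlapped in 1 animal or more, and neither passed the test.

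For the ratio of IP to input per gene, which stands for m6A enrichment of the whole transcript, edgeR called 0 of 18300 genes (0%) between MS1262 and vehicle and 434 (2.37%) had an unadjusted p below 0.05; DESeq2 called 2. The comparison uses the libraries from which the peaks were called, so the values of host genes are a description. In the MS1262 direction the median log2 difference was 0.09 and 210 of 280 genes (75.0%) were above 0, against a median of 0.05 and 59.1% over all genes tested. In the vehicle direction the median was -0.02 and 43 of 94 (45.7%) were above 0. Single genes differed little: the range was -0.47 to 0.55 and -0.35 to 0.25. Stmn4, the host with the smallest p, had 80.5, 59.7, 53.5 and 49.2 IP CPM with MS1262 against 46.8, 38.7, 58.5 and 65.2 with vehicle, and its ratio differed by 0.33 ± 0.13 (log2, SE; edgeR adjusted p = 1.00).

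**Figure D5:**
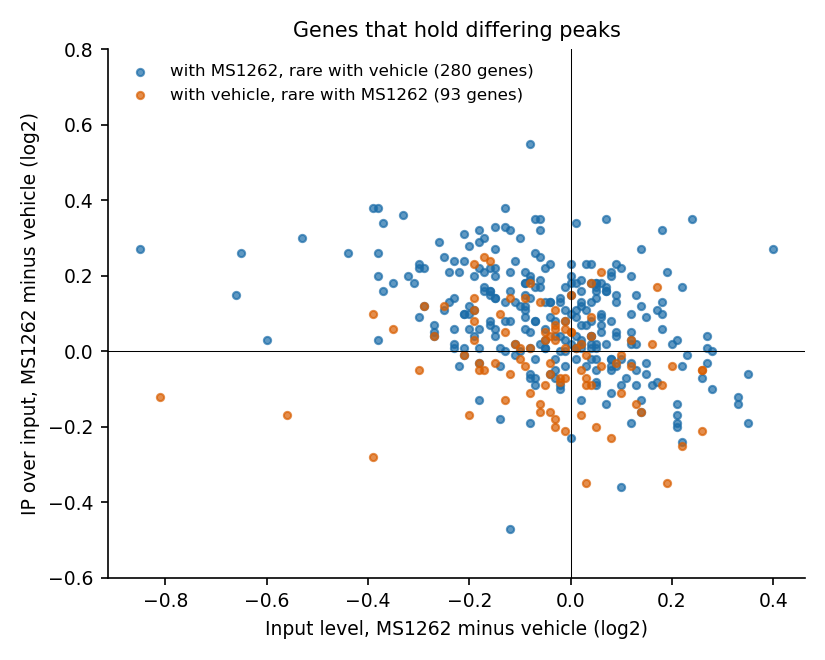
Difference in IP-over-input ratio (y axis, log2, MS1262 minus vehicle) against difference in input level (x axis, log2, same order) for genes with a differing peak; blue, 280 genes of the MS1262 direction; orange, 93 of the vehicle direction. Both axes use the same input libraries, so they are not independent; the blue points have a median of 0.09 on the y axis and the orange ones -0.02.

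Vehicle against wild-type shares the vehicle libraries with the rule, and its values are set beside the peaks for that reason only. In input RNA, 187 genes were higher (1.06%) and 91 lower (0.514%) in vehicle animals by edgeR. Hosts of the MS1262 direction had 1 higher gene of 280 and none lower, and those of the vehicle direction 1 higher and 1 lower of 93, so the shares were near the background. The first was Fcrls, a microglial surface receptor, at 68.3, 100, 29.5 and 86.6 CPM with vehicle and 5.55, 9.52, 24.1 and 16.4 CPM in wild-type animals (log2 2.38 ± 0.40 SE, edgeR adjusted p = 0.00826). The groups did not overlap, and MS1262 animals had 55.4 to 79.7 CPM. Of 26 microglial markers, 18 were higher and none lower in vehicle than in wild-type animals. In bulk RNA, more microglia and more RNA per microglial cell cannot be told apart.

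The Fcrls peak itself was called in MS1262 animals 2 to 4 (1.74, 2.29 and 1.84), in vehicle 2 (1.61), the vehicle animal with the most Fcrls RNA, and in wild-type 3 (2.06), the wild-type animal with the most. In the vehicle direction, Scpep1, a serine carboxypeptidase, was higher at 29.0, 29.2, 31.2 and 29.1 CPM with vehicle against 22.8, 22.0, 19.9 and 20.1 CPM (log2 0.49 ± 0.09, edgeR adjusted p = 0.0169); its peak lies at a point also spanned by the antisense gene Scpep1os, and the counting is not stated to use strand. Vstm2a, an immunoglobulin-domain protein, was lower at 279, 312, 345 and 303 CPM against 428, 445, 402 and 393 CPM (log2 -0.42 ± 0.09, edgeR adjusted p = 0.0284). The call for Vstm2a was lost when any of 7 of the 8 animals was left out, at adjusted p up to 0.0887. That for Scpep1 was lost without wild-type 3, wild-type 4 or vehicle 2, at adjusted p up to 0.0762. Lamp2 had 235, 251, 313 and 224 CPM against 174, 193, 206 and 186 CPM and missed the threshold (log2 0.44 ± 0.11, edgeR adjusted p = 0.0552).

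In IP over input, 176 genes were higher (0.962%) and 5 lower (0.0273%) in vehicle than in wild-type animals by edgeR. Over all genes tested the median log2 difference was -0.06 and 44.5% were above 0. Hosts of the MS1262 direction had a median of -0.15, with 91 of 280 (32.5%) above 0. For hosts of the vehicle direction it was -0.12, with 30 of 94 (31.9%) above 0. As sets, the hosts thus lay lower than genes in general, and this was not tested. Single calls went the other way. Among hosts of the MS1262 direction 8 of 280 were higher and none lower, and among those of the vehicle direction 1 of 94 was higher. The 8 were Grwd1, a histone-binding protein of ribosome biogenesis (log2 1.26 ± 0.27 SE, edgeR adjusted p = 0.0365), Dmwd (0.96 ± 0.21), Mtx1, a mitochondrial import protein (1.02 ± 0.23), the transcription factor Camta2 (0.86 ± 0.19), the chondroitin sulfotransferase Chst12 (1.07 ± 0.24), Chga, the chromogranin A of dense-core vesicles (0.72 ± 0.17, adjusted p = 0.0481), Gm3764 (0.66 ± 0.15) and Oaz1-ps (0.98 ± 0.21). Oaz1-ps is a pseudogene whose reads may be shared with Oaz1, so its value is uncertain.

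Vehicle animal 4, the shallowest IP, gave the highest IP level of the 4 vehicle animals in Grwd1, Dmwd, Camta2, Mtx1, Chst12, Chga and Oaz1-ps, but not in Gm3764: 23.0 CPM for Grwd1 against 8.66 to 10.6, 34.7 for Dmwd against 14.7 to 15.4, 80.6 for Camta2 against 37.3 to 45.9, 14.4 for Mtx1 against 11.5 to 12.3, 14.8 for Chst12 against 8.34 to 9.93, 22.4 for Chga against 14.9 to 17.8 and 40.9 for Oaz1-ps against 13.4 to 14.7. The ratio also depends on the input. For Grwd1 the input was 3.04 to 6.30 CPM with vehicle and 7.22 to 8.16 CPM in wild-type animals. For Chga it was 7.36 to 10.8 and 11.9 to 16.4 CPM. In Dmwd, Mtx1, Camta2, Chst12 and Gm3764 the input ranges overlapped. Wild-type IP levels were 6.61 to 9.83 CPM for Grwd1, 10.3 to 16.7 for Dmwd and 13.2 to 18.1 for Chga. The part of the input in these calls was not tested. All 8 calls held without vehicle 4, at adjusted p of 0.0161 to 0.0466. Leaving out vehicle 4 raised the number of genes called in this comparison to 407 from 181. The calls of these 8 genes were each lost when wild-type 1, wild-type 4 or vehicle 1 was left out, among others, at adjusted p up to 0.188.

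The enzymes that write, erase and read m6A, and the G9a complex, did not differ in input RNA. Of 9 writer, 2 eraser, 11 reader and 6 G9a complex genes tested, none passed in MS1262 against vehicle or in vehicle against wild-type (edgeR, smallest adjusted p = 0.848 and 0.410). Mettl3, the catalytic writer, had 14.9, 21.1, 24.1 and 23.6 CPM with MS1262 and 24.1, 22.8, 21.1 and 21.1 CPM with vehicle (log2 -0.09 ± 0.15, edgeR adjusted p = 0.937). Ehmt2, the gene of the drug's target G9a, had 10.5, 8.90, 12.8 and 12.7 CPM against 8.01, 12.4, 10.0 and 12.3 CPM (0.07 ± 0.18, edgeR adjusted p = 0.961). An inhibitor of an enzyme need not change its RNA, so this level is no check of the treatment.

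Fto differed by -0.13 ± 0.18 and the other eraser Alkbh5 by 0.27 ± 0.16 (log2, edgeR adjusted p = 0.930 and 0.863). The signs for Mettl3, Ehmt2 and Fto turned when 1 animal was left out. The reader Ythdf2 had 98.7, 157, 138 and 121 CPM with MS1262 and 110, 117, 98.1 and 78.2 CPM with vehicle, a difference of 0.35 ± 0.15, and Ythdc1 of 0.24 ± 0.12 (edgeR adjusted p = 0.863 for both). Zc3h13 of the writer complex differed by 0.23 ± 0.10 (edgeR adjusted p = 0.848), Cbll1 by 0.14 ± 0.11 (0.895), Ehmt1 by 0.29 ± 0.15 (0.863) and Cdyl by -0.37 ± 0.19 (0.863). In vehicle against wild-type, Mettl14 differed by -0.27 ± 0.13 (edgeR adjusted p = 0.410), Rbm15b by 0.18 ± 0.12 (0.584), Alkbh5 by -0.32 ± 0.16 (0.419), Fto by 0.13 ± 0.18 (0.836), Ythdf2 by -0.29 ± 0.15 (0.472), Fmr1 by -0.21 ± 0.12 (0.485), Wiz by -0.41 ± 0.24 (0.510) and Cdyl by 0.33 ± 0.19 (0.520).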

How the data were processed

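Per the submitters' processing notes, the tools used on GRCm38 (mm10) included MACS2 2.1.2 and SAMtools 1.10 besides STAR 2.7.6a, Salmon 1.4.0 and Trimmomatic 0.32. The authors deposited estimated counts and TPM per gene; the estimated counts were rounded to whole numbers for testing, and TPM was used only for the input level of genes with peaks. Every animal has its own list of peaks, called from IP read 1 over the input of the same animal, per the file headers, at a q cutoff of 0.5, an extension of 200 bases and a genome size of 1e8, so the lists hold weak peaks. Each peak carries the authors' pileup signal, its fold ratio over background and its −log10 p and −log10 q values as deposited; these describe and filter peaks, and folds of different animals, which come from separate lists, are set side by side with no test. SMART-seq copies carry no molecular identifiers, so that reads of 1 molecule can be counted repeatedly, and the protocol used here names no fragmentation before the antibody step.

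Rows of equal position were collapsed and peaks merged in Python 3.11.15 with pandas 2.3.3. A peak belongs to the gene whose span holds its midpoint (RefSeq, GRCm38.p6); of several, the gene with the highest input TPM. Of 55291 gene rows, 38990 matched a symbol there. Expression was tested on the 12 inputs and m6A enrichment on all 24 libraries (IP by group, animal as block) by the quasi-likelihood test of edgeR 4.0.16 (R 4.3.3; 2-sided; TMM scaling; genes under a count of 10 filtered by group; threshold at an adjusted p of 0.05, Benjamini-Hochberg); all 3 groups shared the spread. DESeq2 1.42.0 was an alternative. Both fits and the peak rule were tested on simulated data. CPM values are scaled by TMM library sizes. The labels number separate animals, and no batch is given. Same-numbered inputs of different groups correlated between -0.20 and 0.10 in their deviations, so numbers were not taken as pairs.

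Per direction up to 12 peaks were named, those in 4 against 0 animals first, then 3 against 0 and 4 against 1, then 3 against 1, by mean fold, passing over predicted genes, with every chosen peak in a gene of 12 lists (194 genes), up to 2 m6A or G9a genes per list and comparison, and Mettl3, Fto, Ythdf2 and Ehmt2. Host genes called or of smallest p were added, as were the peaks of highest mean fold. The members and lists were chosen with earlier results of these data known. A few genes that met the naming rule are not reported here.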

Additional observations from a re-analysis of the deposited data

Results flagged for a closer look

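With 4 animals a group, chance flags about 1 in 20 groups by the gap of 1 animal from the others. Here 10 of 105 groups were flagged, and the values below are given with no explanation. MS1262 animal 4 kept 27.7 M IP tags (M, megacounts) against 18.4 to 19.7 M in the other 3. MS1262 animal 1 carried 186 of the 304 peaks of the MS1262 direction against 259 to 274 in the others, so these 304 rest mostly on MS1262 animals 2 to 4.

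The choroid plexus markers were highest in animal 3 of each group: 867 summed CPM in wild-type 3 against 44.0 to 74.8, 8074 in vehicle 3 against 70.2 to 98.8, and 190 in MS1262 3 against 41.6 to 60.8. Among the genes described, Chst12 was at 7.26 input CPM in wild-type 1 against 3.95 to 4.01, and Mettl14 at 17.4 in wild-type 1 against 13.5 to 14.0. Scpep1 was at 31.2 in vehicle 3 against 29.0 to 29.2, Stmn4 at 33.5 in wild-type 4 against 45.2 to 46.9, and Ythdc1 at 104 in MS1262 1 against 121 to 123.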

How the results depend on the processing

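The number of chosen peaks moved with the definition of a peak. With a q of 0.05 or lower (284 and 87 in the MS1262 and vehicle directions) and with peaks covering at least 50% of the merged peak (318 and 93) the counts stayed near 304 and 98, but the peaks changed: 225 and 71 of the original peaks were also chosen in the first setting and 167 and 66 in the second. A minimum fold of 2 gave 133 and 97, of which only 56 and 23 were among the original peaks. Merging summits within 100 bases gave 660 and 222, requiring no wild-type animal 493 and 155, and allowing no animal of the other group 56 and 34. Leaving out single animals with the thresholds unchanged gave 109 to 766 in the MS1262 direction and 11 to 236 in the vehicle direction. Fewer animals in a group make its threshold harder to reach and the other's easier, by construction. Without vehicle animals 1, 2, 3 and 4 the MS1262 direction held 766, 457, 549 and 524 peaks and the vehicle direction 11, 43, 18 and 47. Without MS1262 animals 1, 2, 3 and 4 they held 198, 127, 109 and 113, and 148, 178, 211 and 236.

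Expression in MS1262 against vehicle gave 0 genes in all settings but those without vehicle 2 (2 genes) and vehicle 3 (1 gene), a range of 0 to 2. For m6A enrichment in the same comparison DESeq2 gave 2, removing only genes with a summed count of 0 gave 42 and the replicate block gave 1. For vehicle against wild-type, expression calls numbered 278, with DESeq2 603, with the replicate block 134, and 108 to 297 over single omissions (without wild-type 1, 3 and 4 142, 141 and 108; without vehicle 1 and 2 162 and 116). Calls of m6A enrichment numbered 181, with DESeq2 491, without the stricter filter 489, with the replicate block 97, and 33 to 407 over omissions (without wild-type 1 to 4 39, 113, 114 and 33; without vehicle 1, 2 and 4 41, 112 and 407). The cause was not tested. The replicate block treats equal numbers as pairs, which the labels do not state; with it the expression calls of Scpep1 and Vstm2a were lost (adjusted p of 0.0698 and 0.0693), as were the m6A calls of Grwd1, Dmwd, Camta2, Chst12, Gm3764 and Chga (0.0823 to 0.121), while those of Mtx1 and Oaz1-ps held (0.0347 and 0.0462). In log2 differences near 0, Mettl3 turned to 0.04 without MS1262 1 (range -0.16 to 0.04 over omissions), Ehmt2 to -0.05 without vehicle 1 (-0.05 to 0.17), Fto to 0.01 without vehicle 4 (-0.28 to 0.01) and, in vehicle against wild-type, to -0.01 without vehicle 4 (-0.01 to 0.24). The peak caller kept 5.48 M IP tags in vehicle 4, which limits what that animal can show.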
